A study of Homo sapiens with 4 samples.

Results

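Matricellular proteins and matrix crosslinking enzymes were followed through 4 colorectal cancer lines as 9 genes taken by name from the 57746 genes of the deposited table. They were 5 matricellular or related secreted proteins (SPARC, IGFBP7, TNC, THBS1 and OLFML3), fibronectin (FN1) and 3 crosslinking enzymes (LOXL4, LOXL2 and TGM2). All 9 were found. They were picked because of how their levels differed between these same lines, so their differences are given as a description and without a p-value.

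Matricellular proteins are secreted into the space around cells, where they act mainly by binding receptors, growth factors and structural fibres and carry little load themselves. Lysyl oxidases oxidise lysine side chains of collagen and elastin so that neighbouring chains become covalently joined, and transglutaminases join glutamine to lysine, with fibronectin among the known substrates. In colorectal tumours much of this gene group is known from stromal fibroblasts, and carcinoma cells are known to switch parts of it on during epithelial-mesenchymal transition.

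The lines were the derivatives SA (mesenchymal by its label, grown from colonies in soft agar), SPH (mesenchymal by its label, grown from colonospheres) and METS (epithelial by its label, from a xenograft that had spread to the lung), and their parent DLD1 (epithelial by its label), a human colorectal cancer line. Total RNA of each was sequenced as 1 library, all from cultures in McCoy's 5A medium with serum, and the labels do not say whether a derivative is a single clone. A difference between lines therefore has no replicate check, and in bulk RNA a smaller number of expressing cells and less RNA per cell cannot be told apart. Values are RPKM, reads scaled to gene length and library size, so levels of different genes can be set side by side. Differences are in log2(RPKM + 1), which understates the change of low values. At 1 RPKM a gene of 1 kb held an estimated 48.55 to 53.85 reads per library, and the intervals given below are 95% Poisson intervals from that estimate that cover counting error only.

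All 4 lines expressed colon epithelial markers, those labelled mesenchymal included, and fibroblast markers were near 0. The 8 colon epithelial markers summed to 1611 RPKM in SA, 1738 in SPH, 2783 in METS and 2177 in DLD1, although CDX1 did not exceed 0.09 RPKM. KRT8 and KRT18 had the highest levels of the 8 in each line, and not every marker followed the sums. CDX2 stood at 31.37, 35.99, 27.58 and 31.88 RPKM in SA, SPH, METS and DLD1. The 11 fibroblast and stromal markers stayed under 1 RPKM in every line and summed to 0.69, 0.99, 0.40 and 0.53 RPKM in the same order, with DCN, PDGFRA and THY1 listed at 0 throughout. Of 7 endothelial markers found in the table CDH5 and KDR were listed at 0 in all lines, EGFL7 lay between 2.28 and 3.63 RPKM and CLDN5 between 0.85 and 1.21, with list sums of 4.56, 5.88, 3.77 and 4.50 RPKM. Of 10 immune markers 5 were listed at 0 in all lines, PTPRC among them, with sums of 0.83, 1.31, 1.90 and 1.35 RPKM.

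**Figure D1:**
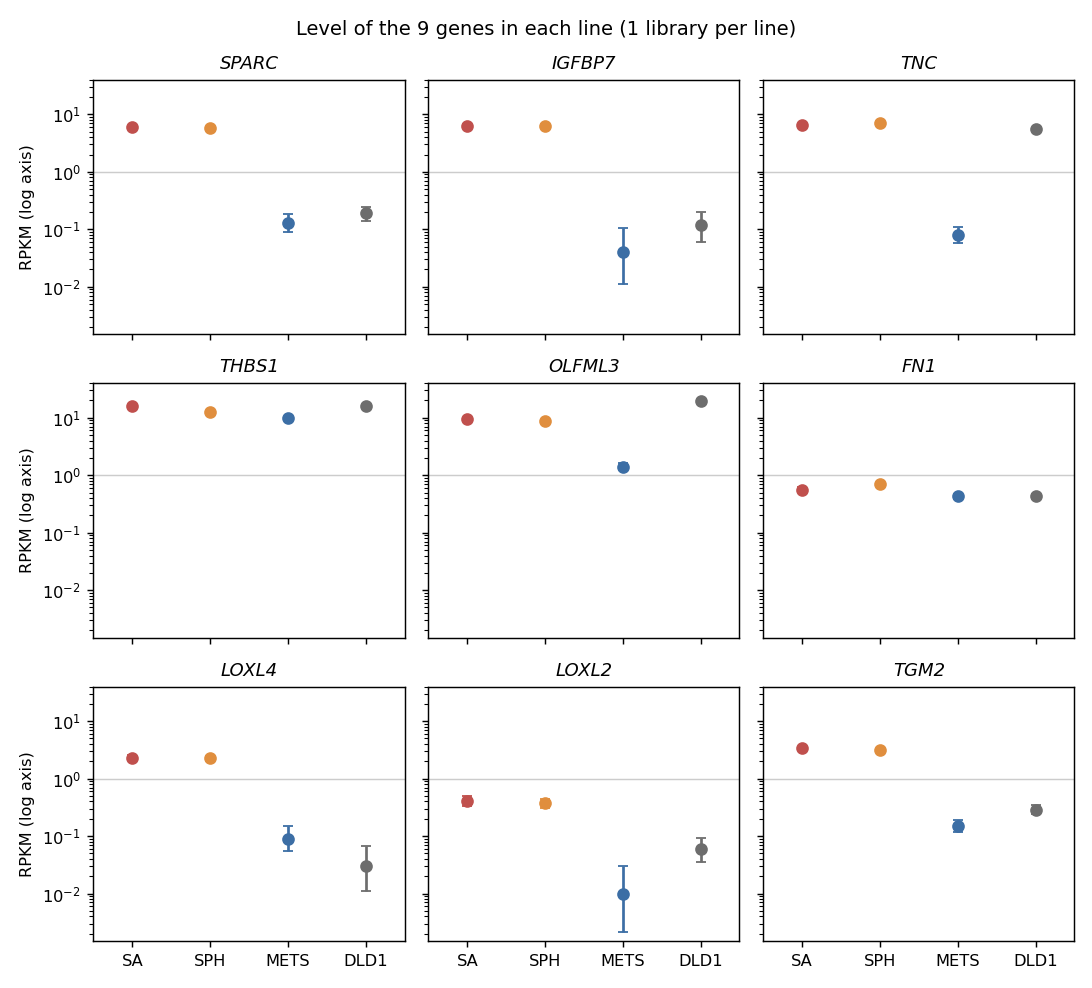
Level of each of the 9 genes in RPKM (log axis) in SA, SPH, METS and DLD1. Points are single libraries and bars are 95% Poisson counting intervals, and the grey line marks 1 RPKM. SPARC, IGFBP7, LOXL4, LOXL2 and TGM2 lie higher in SA and SPH than in METS and DLD1, whereas TNC is low in METS alone, at 0.08 RPKM against 5.55 to 7.12 in the other lines.

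SPARC, a collagen-binding glycoprotein that modulates adhesion and matrix assembly, was expressed in the mesenchymal lines and nearly silent in the epithelial ones. It stood at 5.96 RPKM in SA and 5.72 in SPH, against 0.13 in METS and 0.19 in DLD1. SA and SPH lay far above the other lines, and the intervals of METS (0.0903 to 0.186 RPKM) and DLD1 (0.139 to 0.249) overlapped. The level in SA was 31.4 times that in DLD1, a difference of 2.55, and the difference of SPH from DLD1 was 2.50. In SA this level exceeded that of 44.2% of the genes that reached 1 RPKM, so it was a middling transcript there.

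IGFBP7, a secreted protein that binds insulin-like growth factors weakly and also binds activin and collagen type IV, was higher in the same lines. Its level was 6.17 RPKM in SA and 6.23 in SPH, against 0.04 in METS and 0.12 in DLD1. The mesenchymal lines were within their counting intervals of each other (5.68 to 6.69 and 5.75 to 6.73 RPKM). The differences from DLD1 were 2.68 in SA and 2.69 in SPH. The METS value rested on about 4 reads and the DLD1 value on about 12, so their order is within counting error. IGFBP7 overlaps POLR2B on the opposite strand in GENCODE 29 (19.29, 17.43 and 18.30 RPKM in SA, SPH and METS, against 17.15 in DLD1), and no source used here says whether counting used strand.

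The start regions of genes low in both METS and DLD1 were set beside those of genes far lower in METS than in DLD1. The 250 bases before the RefSeq start (GRCh38.p14) are shown. SPARC (chr5:151686916-151687165, minus strand) and LOXL4 (chr10:98268195-98268444, minus strand) were higher in SA and SPH than in METS and DLD1. TNC (chr9:115118158-115118407, minus strand) and OLFML3 (chr1:113979224-113979473, plus strand) were expressed in DLD1 and far lower in METS. The sets are not separate in every respect, since all these genes were lower in METS than in SA and SPH. Capitals mark matches, on either strand, to short motifs. The letters searched for AP-1 factors were TGANTCA. Those for TEAD factors were GGAATG, and those for the E-box read by ZEB and SNAIL factors were CAGGTG. For SMAD factors the letters were CAGAC, while TATAAA stood for the TATA box and for the GC box the letters were GGGCGG.
SPARC: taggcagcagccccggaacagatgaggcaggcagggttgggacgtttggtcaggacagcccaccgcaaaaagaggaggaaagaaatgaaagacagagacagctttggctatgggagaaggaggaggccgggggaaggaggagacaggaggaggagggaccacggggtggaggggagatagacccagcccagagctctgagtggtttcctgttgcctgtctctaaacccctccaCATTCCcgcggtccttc
LOXL4: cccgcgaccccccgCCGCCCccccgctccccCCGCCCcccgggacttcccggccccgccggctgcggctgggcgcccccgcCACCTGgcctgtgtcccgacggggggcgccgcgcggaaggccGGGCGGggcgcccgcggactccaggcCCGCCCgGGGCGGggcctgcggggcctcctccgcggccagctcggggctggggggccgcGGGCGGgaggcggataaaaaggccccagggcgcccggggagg
TNC: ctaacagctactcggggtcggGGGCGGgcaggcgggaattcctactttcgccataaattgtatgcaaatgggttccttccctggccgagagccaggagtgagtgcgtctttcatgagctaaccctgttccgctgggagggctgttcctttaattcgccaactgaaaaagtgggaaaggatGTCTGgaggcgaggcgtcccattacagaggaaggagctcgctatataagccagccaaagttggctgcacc
OLFML3: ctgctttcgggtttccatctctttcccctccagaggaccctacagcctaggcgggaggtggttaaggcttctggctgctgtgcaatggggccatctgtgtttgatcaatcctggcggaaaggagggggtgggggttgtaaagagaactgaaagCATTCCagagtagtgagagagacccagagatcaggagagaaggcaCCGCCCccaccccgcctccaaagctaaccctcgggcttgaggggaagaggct

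The windows differed within each set as well as between them. SPARC held 7 CpG dinucleotides at 59.2% G and C, with 1 match to the TEAD letters, 17 bases before the start. LOXL4 held 37 CpG at 86.4% G and C, with 6 GC boxes and 1 match to the ZEB and SNAIL E-box. TNC had 12 CpG, 1 GC box and 1 SMAD match, and OLFML3 had 6 CpG, 1 GC box and 1 TEAD match. Among 35116 promoter windows of this length, 11.9% held the TEAD letters, 17.5% the E-box, 38.0% the SMAD letters and 42.6% a GC box, and the median number of CpG was 11. The AP-1 letters (6.57% of windows) and the TATA box letters (10.7%) were not in any of the 4 windows. Only the letters given above were searched, so variant forms of a motif were not counted. The GC box itself contains a CpG, so these counts overlap. A match is a description of letters and does not show that a factor binds there.

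TNC, tenascin-C, a large hexameric protein that weakens adhesion to fibronectin, had another pattern. Its level was 6.61 RPKM in SA, 7.12 in SPH and 0.08 in METS, against 5.55 in DLD1. METS alone was low, with an interval of 0.0573 to 0.11 RPKM. The METS value corresponds to about 39 reads, against about 2880 in DLD1, a difference of -2.60. SA and SPH lay 0.22 and 0.31 above DLD1, so the parental line already carried most of the transcript. The mean of the mesenchymal lines was 6.87 RPKM and that of the epithelial lines 2.81, but the epithelial mean averages a low and a high line and describes neither.

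OLFML3, a secreted olfactomedin-domain protein known in frog embryos (Xenopus) as a scaffold for a tolloid protease and chordin, was lower than in DLD1 in all derivatives. It stood at 9.42 RPKM in SA, 8.82 in SPH and 1.40 in METS, against 19.42 in DLD1. No interval overlapped that of DLD1 (18.7 to 20.1 RPKM), and METS was the lowest. SA and SPH were at 0.485 and 0.454 times the DLD1 level (differences of -0.97 and -1.06), and METS was at 0.0721 times (-3.09). In DLD1 the gene exceeded 79.3% of genes of at least 1 RPKM, in METS 6.02%.

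THBS1, thrombospondin 1, which binds CD47 and CD36 and can activate latent TGF-beta, stayed within 2-fold of DLD1 in all derivatives. Its level was 15.86 RPKM in SA, 12.38 in SPH and 9.89 in METS, against 16.31 in DLD1. The interval of SA (15.5 to 16.2 RPKM) overlapped that of DLD1 (16.0 to 16.7), and SPH and METS were lower. The differences from DLD1 were -0.04, -0.37 and -0.67 in SA, SPH and METS. THBS1 overlaps FSIP1 on the opposite strand, which did not exceed 0.41 RPKM.

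FN1, fibronectin, the fibril-forming adhesion protein to which tenascin-C and thrombospondin bind, was low in every line although it is a common marker of mesenchymal cells. It stood at 0.56 RPKM in SA, 0.69 in SPH and 0.43 in METS, against 0.43 in DLD1. SPH was highest, and its interval (0.637 to 0.746 RPKM) lay above those of METS (0.388 to 0.476) and DLD1 (0.389 to 0.474). The differences from DLD1 were 0.13 (SA), 0.24 (SPH) and 0.00 (METS). FN1 did not reach 1 RPKM and so entered no test. The number of reads behind these values depends on the length of the gene model, 17.3 kb of exon in GENCODE 29, and the authors' model may be shorter.

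LOXL4, a lysyl oxidase with scavenger receptor domains, was expressed in the mesenchymal lines and nearly silent in the others. Its level was 2.30 RPKM in SA and 2.25 in SPH, against 0.09 in METS and 0.03 in DLD1. SA and SPH were alike, and the METS and DLD1 values rested on about 17 and 6 reads. The differences from DLD1 were 1.68 for SA, 1.66 for SPH and 0.08 for METS.

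LOXL2, a related lysyl oxidase studied for its part in epithelial-mesenchymal transition, was also higher in SA and SPH, at a much lower level. It stood at 0.41 RPKM in SA and 0.37 in SPH, against 0.01 in METS and 0.06 in DLD1. The mesenchymal values rest on about 114 and 112 reads and lie above both other lines, whose values rest on about 3 and 18 reads. Because all values are under 1 RPKM, the differences from DLD1 are small on the log2(RPKM + 1) scale, at 0.41 for SA, 0.37 for SPH and -0.07 for METS, and become 1.67, 1.55 and -0.54 with a pseudocount of 0.1. LOXL2 shares exon sequence in GENCODE 29 with ENTPD4 on the same strand, which stood at 10.31, 9.97, 8.86 and 10.35 RPKM in SA, SPH, METS and DLD1.

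TGM2, the widely expressed tissue transglutaminase, was higher in the same lines as LOXL4. In SA it exceeded 27% of the genes that reached 1 RPKM, and LOXL4 exceeded 16.7%. Its level was 3.39 RPKM in SA and 3.16 in SPH, against 0.15 in METS and 0.29 in DLD1. SA was 11.7 times and SPH 10.9 times the DLD1 level (differences of 1.77 and 1.69). The difference of METS from DLD1 was -0.17, with intervals that did not overlap (0.116 to 0.194 and 0.24 to 0.344 RPKM). TGM2 overlaps RPRD1B on the opposite strand in GENCODE 29, a gene that stood between 9.10 and 10.39 RPKM in the 4 lines.

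**Figure D2:**
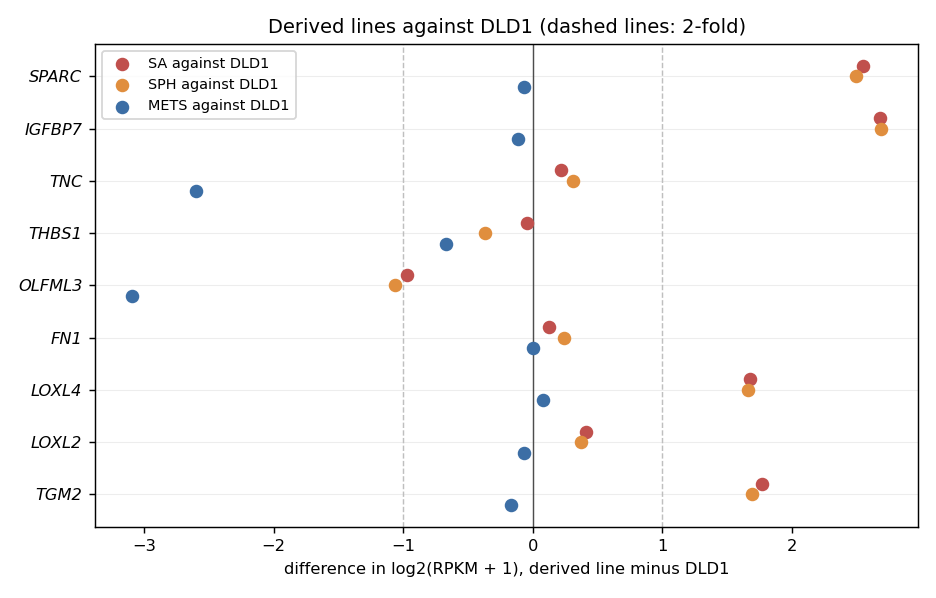
Difference in log2(RPKM + 1) of SA, SPH and METS from DLD1 for the 9 genes, 1 point per line, with dashed lines at 2-fold. SA and SPH points lie close together for most genes, with THBS1 the widest apart (-0.04 and -0.37), and METS is far to the left for TNC (-2.60) and OLFML3 (-3.09).

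By a rule of at least 2-fold among genes whose higher library reached 1 RPKM, SA had 4 of 7 such members higher than DLD1 (SPARC, IGFBP7, LOXL4 and TGM2) and none lower, where 0.44% of all genes were higher and 0.238% lower. SPH had the same 4 of 7 higher, with 0.716% of all genes higher, and 1 lower, OLFML3, with 0.542% of all genes lower. OLFML3 only just missed the rule in SA, at -0.97 against -1.06 in SPH. In SA it met the rule with median-of-ratios scaling (-1.01) or a pseudocount of 0.1 (-1.04). METS had 3 members that reached 1 RPKM there or in DLD1, of which TNC and OLFML3 were lower, where 0.896% of all genes were lower. The other 6 members lay under that minimum in METS and DLD1 alike. These contrasts were among those the genes were picked on, so nothing is read from the shares. The 3 comparisons share the DLD1 library, and its error enters each of them.

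METS was also set against the mesenchymal lines. Of 7 members that reached 1 RPKM, 6 were at least 2-fold lower in METS than in SA (1.23% of all genes were lower) and the same number were lower than in SPH (1.7% of all genes). THBS1 was the exception, at 9.89 RPKM in METS against 15.86 in SA and 12.38 in SPH (differences of -0.63 and -0.30). SPARC, IGFBP7, TNC, LOXL4 and TGM2 met the minimum only through SA or SPH, so they could only come out lower in METS. The genes were also picked on differences between these lines, so nothing is read from these counts. The SPH and SA libraries differed by less than 2-fold for all 7, with differences over the 9 genes from -0.33 (THBS1) to 0.12 (FN1), where 0.262% of all genes differed at least 2-fold.

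Grouped by the labelled classes, 7 of the 9 genes were higher in both mesenchymal lines than in both epithelial lines, and THBS1 and OLFML3 overlapped. Of the 7 members that entered the class test 5 had that order, where 24.7% of all genes tested had it. SPARC, IGFBP7, LOXL4 and TGM2 entered only through SA and SPH, so no other order was open to them. The members were also picked on differences between these lines, so nothing is read from these shares. The class differences were 2.74 for IGFBP7, 2.56 for SPARC, 1.81 for TGM2, 1.63 for LOXL4 and 1.56 for TNC, and 0.53 for OLFML3, 0.43 for LOXL2, 0.18 for FN1 and 0.13 for THBS1. FN1 and LOXL2 stayed under 1 RPKM and were not tested. The median over all genes tested was 0.04. The OLFML3 difference had a standard error of 0.89, and its mean RPKM ran the other way, at 9.12 in the mesenchymal lines and 10.4 in the epithelial lines. These standard errors are from limma-trend, which draws each gene's spread toward that of genes at a similar level. They are therefore not the plain spread between the lines of a class. The value was 0.12 for SPARC and 0.75 for TNC, whose epithelial lines stood at 0.08 (METS) and 5.55 RPKM (DLD1).

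The make-up of the crosslinker families differed between the lines. The 5 lysyl oxidases summed to 5.35 RPKM in SA, 4.37 in SPH and 1.61 in METS, against 2.53 in DLD1. LOXL4 made up 43.0% of the sum in SA and 51.5% in SPH, but 5.59% in METS and 1.19% in DLD1. LOXL3 had the highest level of the family in SA, METS and DLD1, and LOXL4 in SPH. LOXL3 stood at 2.50, 1.62 and 1.44 RPKM in SA, SPH and METS, against 2.30 in DLD1 (class difference 0.09 ± 0.21, SE, adjusted p = 0.95, limma-trend). LOX, the founding enzyme of the family, did not exceed 0.05 RPKM, nor LOXL1 0.11. The 9 transglutaminases summed to 5.28 RPKM in SA, 4.41 in SPH and 2.01 in METS, against 2.38 in DLD1, and the TGM2 share was 64.2%, 71.7%, 7.46% and 12.2% in that order. TGM1, the keratinocyte enzyme, stood at 1.81, 1.11 and 1.80 RPKM in SA, SPH and METS, against 1.96 in DLD1.

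**Figure D3:**
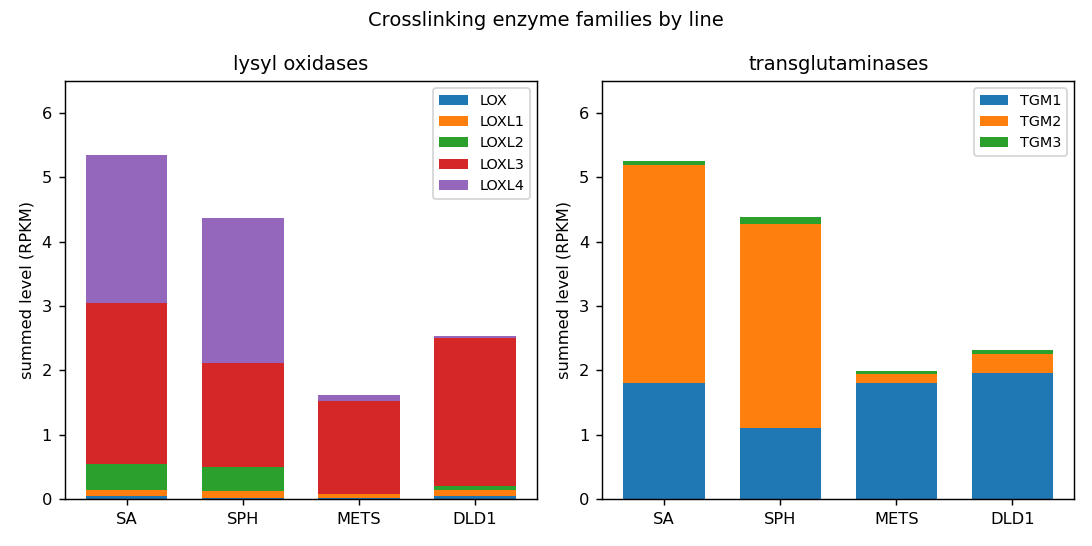
Summed level (RPKM) of the lysyl oxidase family and the transglutaminase family in SA, SPH, METS and DLD1, each bar divided by gene, with genes that reach 0.05 RPKM in some line drawn. LOXL4 and TGM2 make up much of the taller SA and SPH bars, while LOXL3 and TGM1 make up most of the METS and DLD1 bars.

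Transcripts of fibrillar and elastic matrix were scarce. Of 34 listed fibrillar, elastic and fibrin-forming matrix genes 2 reached 1 RPKM in a line, COL11A2 and EMILIN2, and neither passed the class test. COL11A2, a minor fibrillar collagen chain, stood in SA and SPH at 1.44 and 1.71 RPKM against 0.85 and 1.27 in METS and DLD1 (class difference 0.33 ± 0.15, SE, adjusted p = 0.62, limma-trend). EMILIN2, an elastic fibre glycoprotein, had 1.80 and 1.69 RPKM in SA and SPH, with 1.30 and 1.37 in METS and DLD1. The chains of the main fibrillar collagens stayed low, with COL1A1 at most 0.15 RPKM and COL1A2 and COL3A1 at most 0.01. COL5A2, which helps set fibril width, stood at 0.49, 0.48, 0.23 and 0.42 RPKM in SA, SPH, METS and DLD1.

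Of 23 listed enzymes and chaperones that modify and process collagen 12 reached 1 RPKM and were tested, and none passed the class test (1 at an unadjusted p under 0.05, against 8.65% of all genes tested, limma-trend). LEPRE1, a prolyl 3-hydroxylase, had the largest class difference, 0.40 ± 0.12 (SE, adjusted p = 0.43, limma-trend), and its level in SA and SPH was 5.06 and 5.80 RPKM against 3.76 and 4.0 in METS and DLD1. The lysyl hydroxylase PLOD1 had 15.60 RPKM in METS and 26.31 in DLD1 (-0.72). Its relative PLOD2 stood at 8.45, 7.91 and 7.86 RPKM in SA, SPH and METS, against 11.09 in DLD1. PCOLCE, an enhancer of procollagen cleavage, had 1.70 and 2.35 RPKM in SA and SPH, with 1.58 and 1.53 in METS and DLD1. In METS 10 of 12 were below DLD1, with a median of -0.30, where the median of all genes was -0.03 and 54.9% were below 0.

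Of 26 listed matricellular genes that are not among the 9, 5 reached 1 RPKM and none passed the class test (0 at an unadjusted p under 0.05, limma-trend). Their median class difference was 0.13, against 0.04 over all genes tested. CYR61 (CCN1), an integrin-binding growth factor modulator, was the most abundant matricellular transcript in all lines, at 28.72 RPKM in SA, 17.24 in SPH and 24.56 in METS against 42.39 in DLD1. CTGF (CCN2) stood at 9.65, 7.77 and 3.38 RPKM against 9.26, and TGFBI, an integrin ligand, at 13.63, 12.93 and 8.70 RPKM against 16.53. THBS3 stood in SA and SPH at 1.60 and 2.28 RPKM against 1.33 and 1.44 in METS and DLD1. SPP1, POSTN and THBS2, matricellular genes of wound and tumour stroma, did not exceed 0.04 RPKM. The whole list summed to 93.4 RPKM in SA, 76.3 in SPH and 51.9 in METS, against 112 in DLD1, so SPARC, although much higher, was 6.38% of the sum in SA and 7.50% in SPH.

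Among the other IGF-binding proteins, none of the 3 tested passed the class test (0 at an unadjusted p under 0.05, limma-trend). IGFBP6, which prefers IGF2, stood at 4.94 RPKM in SA, 5.85 in SPH and 14.30 in METS, against 4.18 in DLD1 (difference of METS 1.56). IGFBP4 had 4.71 RPKM in METS and 8.74 in DLD1 (-0.77), with 10.21 and 9.17 in SA and SPH. IGFBP2 was the most abundant of the family, at 15.71, 18.24 and 21.46 RPKM in SA, SPH and METS, against 16.77 in DLD1. IGFBP3 reached 1.16 RPKM in METS against 0.39 in DLD1 and was not tested.

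Of 20 listed receptors for fibronectin and matricellular proteins 11 were tested and none passed the class test (3 at an unadjusted p under 0.05, against 8.65% of all genes tested, limma-trend). In SA 10 of 11 were below DLD1, with a median of -0.16 against 0.03 for all genes (44.4% of them below 0). In SPH 9 of 11 were below (median -0.23, all genes 0.03, 43.6% below 0). In METS 8 of 11 were below (median -0.15, all genes -0.03, 54.9% below 0). These comparisons share the DLD1 library. ITGA9, an integrin subunit that binds tenascin-C, stood in SA and SPH at 0.17 and 0.25 RPKM against 1.07 and 1.21 in METS and DLD1 (class difference -0.82 ± 0.13, SE, adjusted p = 0.11, limma-trend). ITGB6, the partner of the alpha-v subunit in an integrin that binds fibronectin, had 0.10 RPKM in METS and 1.92 in DLD1, with 1.90 and 2.66 in SA and SPH, so that METS was lowest, as for TNC. The syndecans SDC4 and SDC3 were at -0.61 ± 0.13 and -0.40 ± 0.13 (class difference, SE), with adjusted p = 0.30 and 0.49 (limma-trend). Of 5 tested genes for TGF-beta and the proteins that store it none passed. LTBP4 stood in SA and SPH at 3.37 and 4.76 RPKM against 3.25 and 2.35 in METS and DLD1, and TGFB1 at 19.85 and 16.44 against 17.65 and 24.12.

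In all, 0 of 40 tested genes of these lists that are not among the 9 passed the class test (adjusted p 0.05, limma-trend), where 0.355% of 11262 genes passed. Of the 40, 4 had an unadjusted p under 0.05, against 8.65% of all genes, and limma without trend called 0, against 0.373%. Without the DLD1 library 5 of the 40 passed, against 2.71% of all genes. In it CTGF (1.14), IGFBP4 (0.90) and ITGB6 (1.57) were higher in SA and SPH than in METS, and IGFBP6 (-1.26) and SDC4 (-0.75) lower. These genes are named because they stood out in that fit, and they describe 1 METS library.

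**Figure D4:**
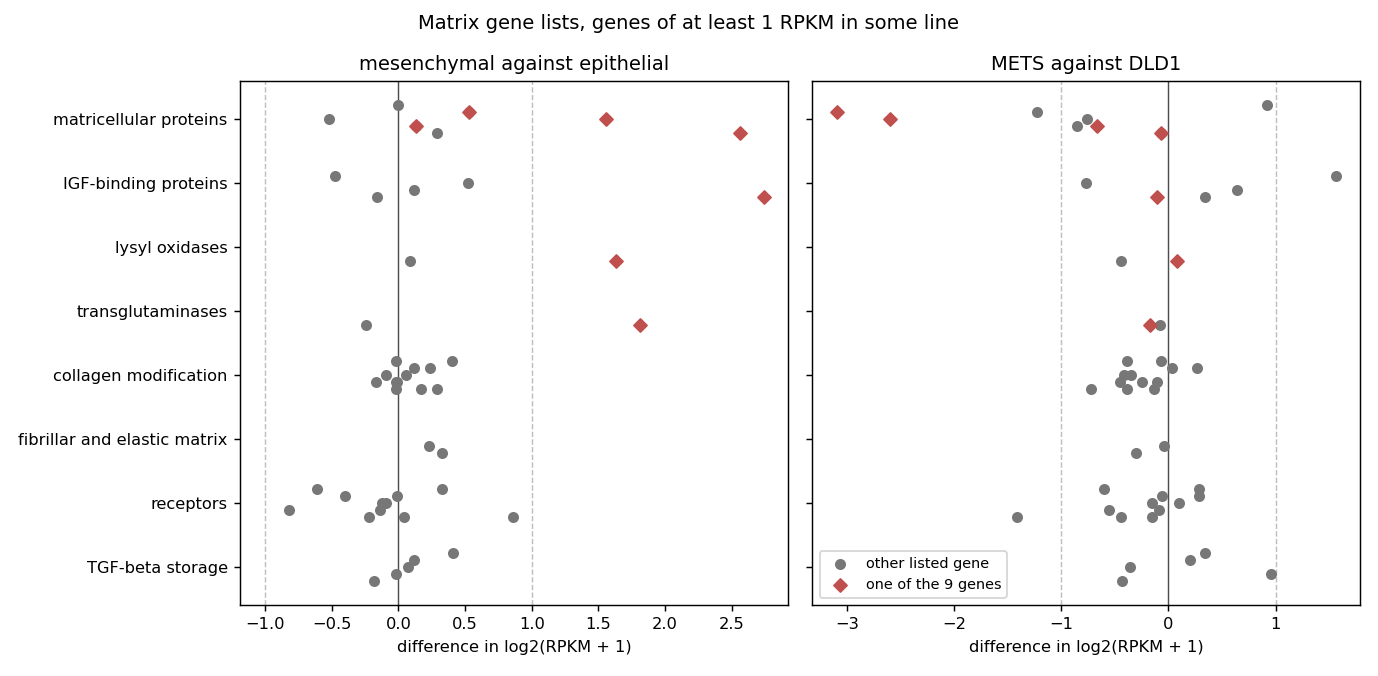
Difference in log2(RPKM + 1) of listed matrix genes that reach 1 RPKM in some line, by list, for the mesenchymal against the epithelial lines and for METS against DLD1. Diamonds are the 7 of the 9 genes that reach that level and circles the other listed genes, which lie within 2-fold between the classes, while the diamonds for IGFBP7 (2.74) and SPARC (2.56) lie farthest to the right.

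The pattern over the 4 lines was compared between genes by the Euclidean distance of log2(RPKM + 1) centred on each gene's mean, with 11657 genes that reached 1 RPKM in a line. SPARC and IGFBP7 were 0.18 apart and LOXL4 and TGM2 0.26 apart. Outside the 9 genes, the nearest to SPARC was the basal keratin gene KRT5 (0.12), at 4.96, 5.15, 0.07 and 0.13 RPKM in SA, SPH, METS and DLD1. The nearest to IGFBP7 was also KRT5 (0.28). The WNT antagonist DKK4 was among the 3 nearest to each of SPARC and IGFBP7 (0.37 and 0.55), and the cystatin CST1 was the third for SPARC (0.54).

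The membrane-cytoskeleton linker MSN was among the 3 nearest to LOXL4 (0.13) and to TGM2 (0.24), as were APCDD1 (0.15) for LOXL4 and the tubulin TUBB2B (0.24) for TGM2. For TNC the nearest were UGT1A6 (0.26), PBDC1 (0.27) and GPX3 (0.50), which shared its near absence in METS. OLFML3 had no close neighbour, with PBDC1, SEMA5A and LCN2 at 0.89, 0.89 and 0.91. THBS1, FN1 and LOXL2 varied little on this scale, so many genes lay near them, for example SYT12 near THBS1 (0.06), ZBTB5 near FN1 (0.02) and SORT1 near LOXL2 (0.04). With 4 lines a small distance describes how close 4 centred values lie and nothing more.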

How the data were processed

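Total RNA of 4 lines was sequenced, 1 library per line, per the labels. The authors deposited 1 table of RPKM values to 2 decimals. The unit was read from the values: they are not whole, column sums differ (275639 to 284919), and value times exon length (GENCODE 29) summed to 916295 to 927501 over 34099 genes with a matched name. Reads were placed on hg19, going by the submitters' processing notes. The aligner, counter, annotation and strand use, and whether reads or fragments were counted, were not given in the sources used here. Small RNAs are often listed at 0, so 0 is read only as listed at 0.

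Depth was estimated from the step between low values of genes of 200 to 500 bases (values up to 0.6 RPKM). Other length ranges moved the 4 estimates by at most 0.25 reads. Estimated reads are RPKM times exon length times that step, and their 95% Poisson intervals cover counting error only, not the spread between cultures.

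Genes that reached 1 RPKM in 2 or more of the 4 libraries were compared between the labelled classes, SA and SPH against METS and DLD1, with limma-trend on log2(RPKM + 1) and Benjamini-Hochberg adjustment (limma 3.58.1, R 4.3.3), after a check on simulated data. The spread in this test is that between different lines, drawn toward the spread of genes at a similar level, and standard errors carry that adjustment. Pairs of lines were compared by a 2-fold rule without a test. Alternatives were pseudocounts of 0.1 and 5, no filter, a floor of 5 RPKM, scaling by median-of-ratios factors, limma without trend, a 4-fold rule and leaving out each library.

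Besides the 9 genes, the text names up to 4 genes per list by absolute class difference, any listed gene that passed, and genes among the 3 nearest in pattern to each of the 9, some of which are not reported here. Listed genes outside these were chosen after their values were seen: COL1A1, COL1A2, COL3A1, COL5A2, LOX, LOXL1, SPP1, POSTN and THBS2. The members and lists were chosen with earlier results of these data known. Of 138 listed symbols 137 were matched, 2 through RefSeq synonyms. Promoter windows are from RefSeq (GRCh38.p14), a build other than that of the authors. Of the 9 genes, 6 had an entry that could be used. Overlapping genes were looked up in GENCODE 29. Analyses used Python 3.11.15, pandas 2.3.3, numpy 2.4.6 and scipy 1.17.1.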

Additional observations from a re-analysis of the deposited data

Results flagged for a closer look

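IGFBP7, TNC and TGM2 were flagged because SA and SPH lay on one side of DLD1 and METS on the other. Each difference was at least 0.1 on the log2(RPKM + 1) scale. SPARC and LOXL2 had the same signs but fell short of that cut, with METS at -0.07 for both. The share of all genes that meet this rule was not computed, so nothing is read from how many members do. Each line is 1 library, so this difference between the derivatives was not tested. IGFBP7 differed from DLD1 by 2.68 (SA), 2.69 (SPH) and -0.11 (METS), while the METS and DLD1 counting intervals overlapped (0.0112 to 0.106 and 0.0597 to 0.202 RPKM). TNC differed by 0.22 in SA, 0.31 in SPH and -2.60 in METS, with counting intervals that did not overlap that of DLD1 (5.35 to 5.76 RPKM). TGM2 differed by 1.77 in SA, 1.69 in SPH and -0.17 in METS.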

How the results depend on the processing

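No paired analysis was possible because each line has 1 library and the labels give no shared replicate numbers. Of the 40 genes that passed the class test (limma-trend), the count became 26 with a pseudocount of 0.1, 5 with a minimum of 5 RPKM (fewer genes tested) and 0 with no filter (2208 at an unadjusted p under 0.05, 24097 genes tested). Leaving out 1 library gave 5 to 305 genes, namely 5 without SA, 6 without SPH, 27 without METS and 305 without DLD1, with the lone line of a class taken to vary like the lines of the other class. The cause was not tested.

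The 2-fold counts against DLD1 for SA, SPH and METS (77, 144 and 160) became 211, 350 and 368 on adding 0.1 before the logarithm, 12, 24 and 31 on adding 5, 29, 61 and 88 with a minimum of 5 RPKM, and 9, 13 and 14 by a 4-fold rule. No filter left them as they were, since a gene under 1 RPKM cannot reach 2-fold on this scale. Folds of the 9 genes were recomputed, each counted once per alternative setting. Of 48 that were at least 2-fold in the main setting, all 48 kept their sign and 40 stayed at least 2-fold. The 8 that did not were those with a pseudocount of 5. Of 60 that were under 2-fold in the main setting, 4 reached 2-fold with a pseudocount of 0.1. OLFML3 in SA against DLD1 also reached it with median-of-ratios scaling (-1.01, from -0.97). Values under 0.1 RPKM rest on few reads (about 3 for LOXL2 and 4 for IGFBP7 in METS).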

Other observations

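Among the listed genes outside the naming rule, 3 chosen after their values were seen are given as values. NOV (CCN3), a matricellular protein of the same family as CTGF, stood at 1.09 RPKM in SA, 1.25 in SPH and 1.98 in METS, against 0.58 in DLD1. TGFB2 stood at 9.09, 8.15 and 12.57 RPKM, against 5.99 in DLD1. LTBP2, a latent TGF-beta binding protein that sits on elastic microfibrils, stood in SA and SPH at 0.75 and 0.84 RPKM, against 0.09 and 0.07 in METS and DLD1, under the minimum of 1 RPKM and therefore not tested.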
